A study of Fukomys damarensis and Heterocephalus glaber and Mus musculus with 160 samples.

Results

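H3K4me3 regions lacking H3K27ac were places where trimethylated lysine 4 of histone H3 was called in at least 2 animals and acetylated lysine 27 was called in none. Each of 4 rodent species and each of 2 tissues was treated apart, which gave 8 sets. Peaks of a mark that overlapped a peak of another animal by at least 50% of the shorter peak were merged into consensus regions, and the same overlap rule was used throughout. A member was an H3K4me3 consensus region that overlapped no H3K27ac peak of any single library of its species and tissue. The members were thus selected on their H3K4me3 and H3K27ac peaks, so values of those marks in the same tissue are given as a description, without a test. Summed over the 8 sets, 14576 of 169308 H3K4me3 consensus regions (8.61%) were members. Of these, 14057 members (96.4%) did not share a single base with an H3K27ac peak of their set. That count uses the same lists as the rule, so it describes the members and is no separate support for the name.

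The peaks came from chromatin immunoprecipitation followed by sequencing (ChIP-seq), in which an antibody recovers the DNA wrapped around a marked histone. Liver and heart were taken from wild-type mouse (C57BL/6J, 2 months old), guinea pig (2.3 months), Damaraland mole-rat (DMR in the sample names, 36 to 48 months, estimated) and naked mole-rat (NMR, 13 to 17 months). The animals were male except DMR6, and 1 mouse heart library was a pool of 3 animals. Each set had 2 to 6 H3K4me3 libraries, 3 to 6 H3K27ac libraries and 3 to 5 libraries of monomethylated lysine 4 (H3K4me1), and a replicate was an animal named in the labels. Whole tissue was used, so a mark confined to a few cells and a weak mark in many cells cannot be told apart.

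H3K4me3 is laid down at CpG-rich promoters and is broad and strong at genes in use. H3K27ac is placed by the acetyltransferases p300 and CBP at active promoters and enhancers. A promoter with H3K4me3 but without H3K27ac is known from genes that are poised, silenced by Polycomb proteins or active in a small part of the cells, and H3K4me1 flanks active promoters and covers enhancers, including primed ones that carry no acetylation. No annotation or genome sequence of the builds used by the files (GRCm38, Cavpor3.0, DMR_v1.0 and HetGla_1.0) was used here, so the members are given by position, without genes or bases, and the tissues were not checked against marker genes.

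The 99 histone lists held 14782 to 253457 peaks. A peak list carries no read numbers, so sequencing depth is unknown and a missing peak means only that none was called. The naked mole-rat liver H3K4me3 list of NMR30 stood apart with 253457 peaks, against at most 55315 in the other H3K4me3 lists. Only 8.61% of its peaks fell in the consensus, against at least 63.6% for the other 4 libraries of that set. The H3K4me1 heart lists of mouse 33017 and of DMR1 carry a tag that the labels do not explain. No 2 libraries of a group were alike enough to be one library deposited again, with a highest Jaccard index (shared bases over all bases) of 0.83 over 169 pairs.

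Members were a small share of the H3K4me3 regions in every set, lowest in guinea pig liver and highest in naked mole-rat liver. Naked mole-rat liver held 3673 members among 27878 regions (13.2%, 95% Wilson interval 12.8 to 13.6) and naked mole-rat heart 2575 among 23025 (11.2%, 10.8 to 11.6). Damaraland mole-rat liver held 1117 among 20816 (5.37%, 5.07 to 5.68) and its heart 2558 among 27700 (9.23%, 8.90 to 9.58). Guinea pig liver held 108 among 14456 (0.747%, 0.619 to 0.901). Its heart held 1383 among 20031 (6.90%, 6.56 to 7.26), so the share differed between the tissues of the same 3 animals. Mouse liver held 1763 among 16841 (10.5%, 10.0 to 10.9) and mouse heart 1399 among 18561 (7.54%, 7.17 to 7.93). These intervals cover counting error only, and the share was higher in liver than in heart in mouse and naked mole-rat and lower in liver in guinea pig and Damaraland mole-rat.

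Single H3K27ac libraries covered the H3K4me3 regions to different extents. In guinea pig liver a single H3K27ac library missed 1.53% to 2.50% of the H3K4me3 regions, and 97.3% of the non-members had a peak in all 3 libraries. In Damaraland mole-rat heart a single library missed 12.02% (DMR2) to 47.6% (DMR1), and in naked mole-rat heart 14.0% (NMR35) to 24.8% (NMR31). Regions acetylated in only 1 library are not members by the rule, and there were 106 of them in guinea pig liver and 2051 in naked mole-rat heart. Leaving out single libraries moved 4 of the 8 counts by more than 1.5 times and removed the Damaraland mole-rat liver set, whose H3K4me3 consensus needs both of its libraries. Without H3K27ac library NMR35 the naked mole-rat heart set grew to 4169 members, and without H3K4me3 library NMR31 or NMR35 it shrank to 1629 or 1558. The Damaraland mole-rat heart set held 4019 members without H3K27ac library DMR2 and 1560 without H3K4me3 library DMR2. The guinea pig heart set held 2544 without H3K27ac library GuineaPig7, and the guinea pig liver set held 45 or 43 without H3K4me3 library GuineaPig7 or GuineaPig8. Leaving out NMR30 took the naked mole-rat liver set to 2940 members, and 760 of its members (20.7%) rested on an NMR30 peak as 1 of only 2 supporting libraries.

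**Figure D1:**
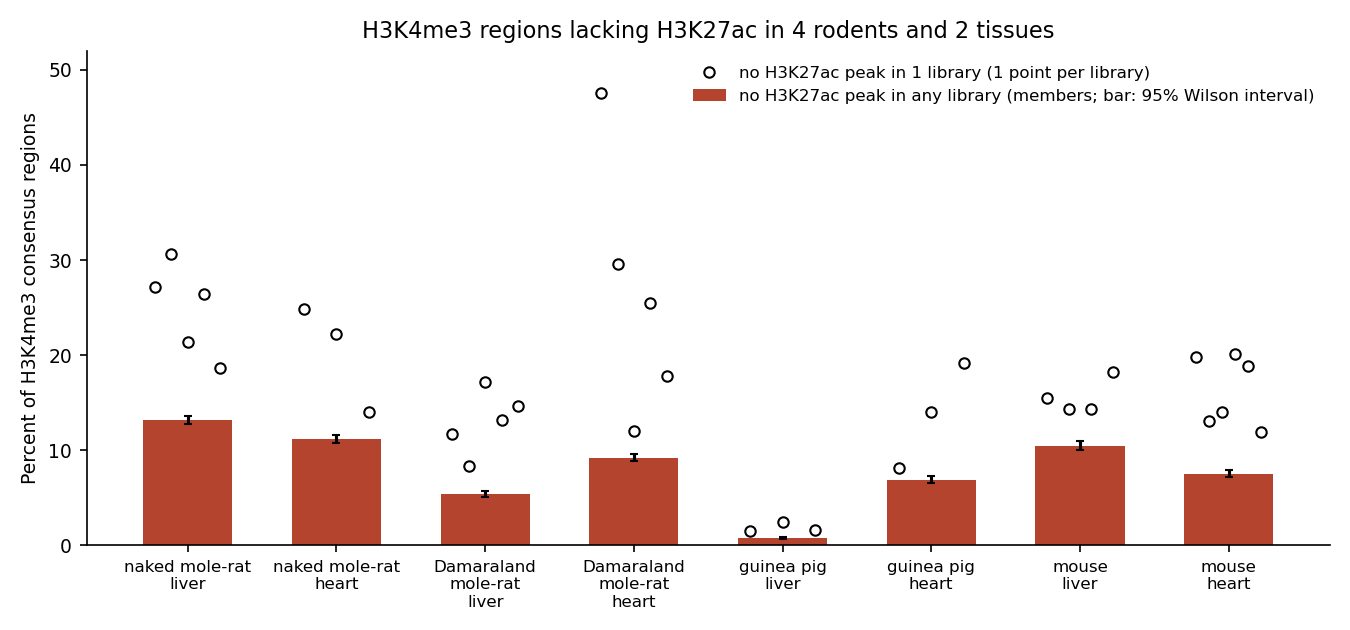
Percent of H3K4me3 consensus regions (vertical axis) without an H3K27ac peak in any library (bars, the members, with 95% Wilson intervals) and without one in a single library (open points, 1 per H3K27ac library) for the 8 sets. Guinea pig liver has the lowest bar (0.747%) and the lowest points, and the highest point is DMR1 in Damaraland mole-rat heart (47.6%).

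The overlap threshold decided few members. Over the 8 sets 519 members had some overlap with an H3K27ac peak below the 50% limit, with median widths of 308 to 695 bases and median folds of 5.43 to 6.38. Just outside, 215 regions with a best overlap of 50% to 60% were kept out, with median widths of 329 to 1116 bases and median folds of 5.18 to 7.58.

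Members were narrow and weakly enriched. Their median width was 343 bases in naked mole-rat liver and 466 in its heart, 463 and 402.5 in Damaraland mole-rat liver and heart, 523 and 509 in guinea pig, and 736 and 786 in mouse. The other H3K4me3 regions had medians of 923 to 1751 bases, and in each set the upper quartile of the members' widths lay below the median of the others. Regions of at least 2 kb made up 0 to 1.64% of the members in 7 sets and 5.00% (70 regions) in mouse heart, against 12.5% to 39.2% of the others. Fold enrichment, the authors' linear ratio of the peak signal over background, was averaged over the libraries with a peak. Its median over members was 5.77 in guinea pig liver, the lowest, and 8.10 in mouse heart, the highest, against 19.3 to 43.7 for the other regions.

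The gap in fold was present in all 32 H3K4me3 libraries. In mouse liver the median fold over members was 7.76, 7.77, 7.77 and 7.11 in animals 85920, 85921, 85923 and 85924, against 46.5, 43.5, 45.3 and 43.8 over the other regions. The 2 groups of values did not overlap, and the others were 5.60 to 6.16 times stronger. In naked mole-rat heart the ratio was lowest, at 1.64 in NMR34, where the non-members themselves had a median fold of 7.65. Few members were as strong as an ordinary H3K4me3 region: 65 of 2575 in naked mole-rat heart exceeded the median of the others, 36 in Damaraland mole-rat heart, 32 in naked mole-rat liver, 15 in mouse liver, 11 in Damaraland mole-rat liver, 3 in mouse heart, 2 in guinea pig heart and 0 in guinea pig liver.

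Sorting the regions of a set into 5 quintiles of mean fold placed nearly all members in the weaker ones. In mouse liver 28.0% of the weakest quintile were members, then 20.3%, 3.83% and 0.208%, and 0 in the strongest. Naked mole-rat liver ran from 37.8% in the weakest quintile to 0.0179% in the strongest. Quintiles of width gave the same order, from 40.6% in the narrowest quintile of naked mole-rat liver to 0.197% in the widest.

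**Figure D2:**
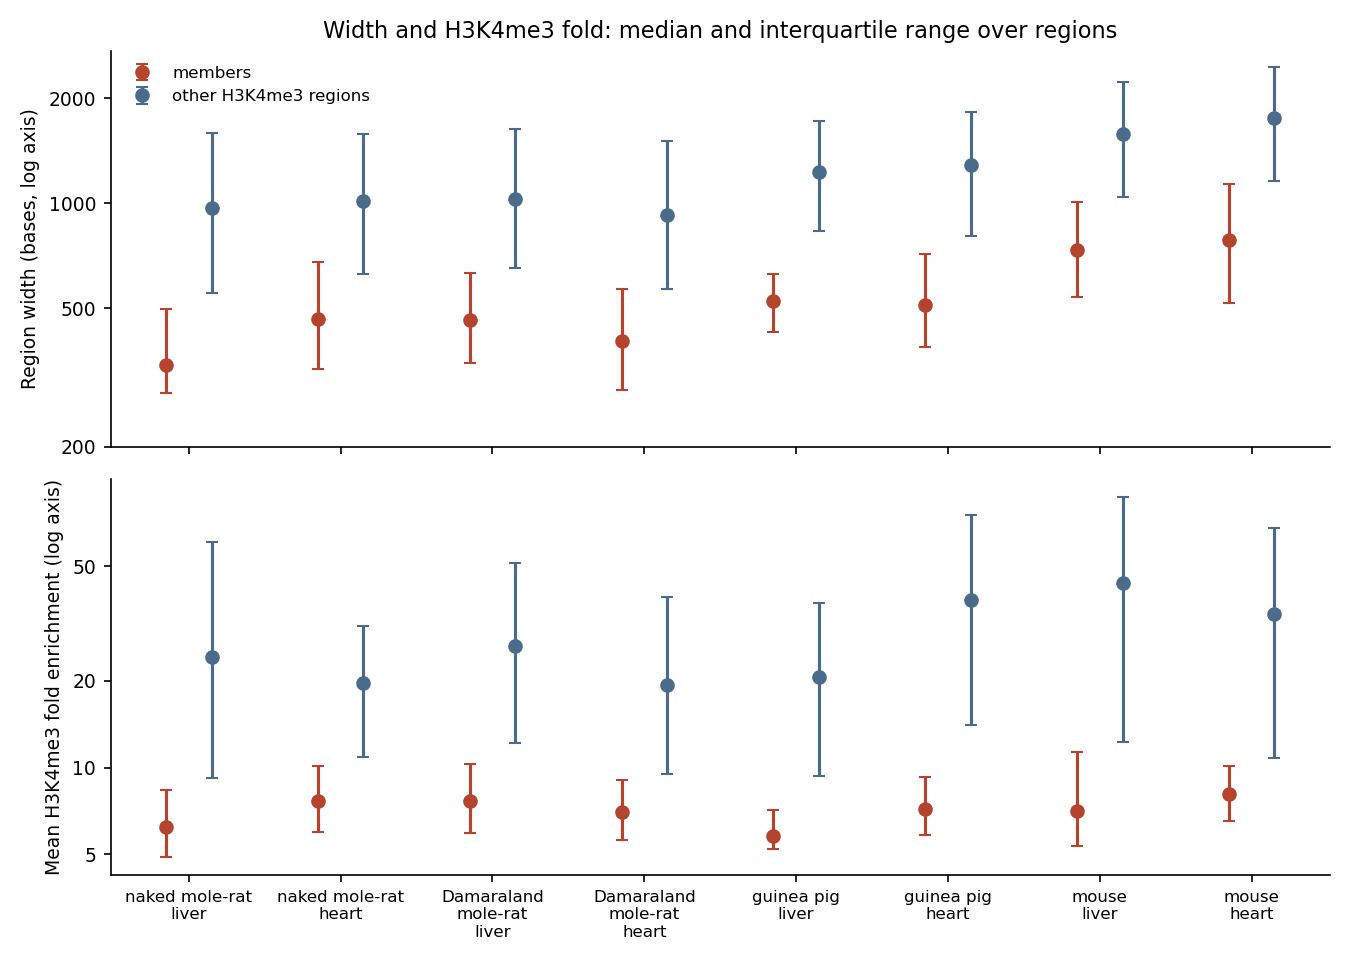
Region width in bases (upper panel, log axis) and mean H3K4me3 fold enrichment (lower panel, log axis) of members and of the other H3K4me3 regions in the 8 sets; points are medians and bars run from the lower to the upper quartile over regions. Members lie below the others in both panels, with median folds of 5.77 to 8.10 against 19.3 to 43.7.

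Members were also found in fewer animals. Peaks in every H3K4me3 library of the set were present at 7.16% of members against 64.6% of the others in naked mole-rat liver, 3.92% against 52.8% in its heart and 4.81% against 62.9% in Damaraland mole-rat heart. Such a share cannot exceed that of the library with the fewest peaks at members. In naked mole-rat heart NMR34 had a peak at 11.3% of members (53.55% of the others), against 93.2% of members in NMR31. In Damaraland mole-rat heart DMR11 had one at 6.998% of members (64.2% of the others), against 90.6% of members in DMR2. The 3.92% and 4.81% were thus capped by NMR34 and DMR11. Among sets with more than 2 H3K4me3 libraries the share was highest in mouse liver (4 libraries) and guinea pig heart (3 libraries). There 66.3% and 61.0% of members were found in all animals, against 88.5% and 93.6% of the others. The share is harder to reach with more libraries, so the sets cannot be ranked by it. Mouse heart had 14.0% against 74.9% and guinea pig liver 33.3% against 89.4%. Damaraland mole-rat liver had only 2 H3K4me3 libraries, so every region there was found in both. Support from exactly 2 libraries, the fewest allowed, was held by 48.3% of the naked mole-rat liver members and 8.99% of the others.

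A few members were strong in every animal. The members named here are the strongest among those called in every H3K4me3 library of their set, so they are not typical. The strongest in naked mole-rat liver, on scaffold JH167395.1 from 682015 to 683015 (HetGla_1.0), had folds of 22.8, 83.0, 60.9, 110.3 and 88.7 in NMR30, NMR31, NMR32, NMR34 and NMR35, a mean of 73.1 ± 33.2 (SD, n = 5). It carried H3K4me3 in all 4 heart libraries and H3K27ac in 2 of the 3 heart libraries. The strongest mouse liver member, on chromosome 8 from 95633360 to 95634433 (GRCm38), had folds of 109.9, 58.9, 92.4 and 50.4 in animals 85920, 85921, 85923 and 85924, a mean of 77.9 ± 28.0 (SD, n = 4). H3K4me1 was called there in all 4 liver libraries, and in heart H3K4me3 was called in 6 of 6 libraries and H3K27ac in 4 of 6. Both regions were thus unacetylated in liver only, as far as peaks were called. The next 2 mouse liver members, on chromosome 3 from 7503088 to 7504193 and on chromosome 8 from 95081036 to 95081999, had mean folds of 59.1 ± 15.4 and 57.7 ± 9.79 (SD, n = 4) and H3K27ac in all 6 heart libraries.

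The strongest guinea pig member lacked acetylation in both tissues. On scaffold DS562880.1 from 1672652 to 1673710 (Cavpor3.0) its heart folds were 63.5, 40.8 and 60.8 in GuineaPig7, GuineaPig8 and GuineaPig9, a mean of 55.0 ± 12.4 (SD, n = 3). The overlapping liver member, from 1672873 to 1673547, had folds of 16.9, 11.1 and 9.08. The second guinea pig heart member, on DS562966.1 from 2379754 to 2380648, had folds of 31.6, 44.1 and 59.5 and no H3K4me3 or H3K27ac peak in any liver library, while H3K4me1 was called in all 3. In Damaraland mole-rat liver the strongest member was on KN120708.1 from 343355 to 344126 (DMR_v1.0), with folds of 28.5 in DMR1 and 61.0 in DMR4. It had H3K4me3 in all 5 heart libraries and H3K27ac in 3 of 5.

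Wide members were of several kinds. The widest of all, in mouse heart on chromosome 5 from 137978576 to 137984395 (5820 bases), rested on 2 of the 6 H3K4me3 libraries, with folds of 20.1 in 6837 and 6.42 in 6842. It carried H3K4me3, H3K27ac and H3K4me1 in all 4 liver libraries. The widest in mouse liver, on chromosome 17 from 62879659 to 62884087 (4429 bases), had a mean fold of 20.2 ± 5.89 (SD, n = 4) and both H3K4me3 and H3K27ac in all 6 heart libraries. The widest in naked mole-rat heart, on JH170689.1 from 399039 to 403189 (4151 bases), had H3K4me3, H3K27ac and H3K4me1 in all 5 liver libraries. These 3 regions were acetylated in the other tissue in every animal. The widest of naked mole-rat liver, 2190 bases on JH168595.1 from 433277 to 435466, had no H3K27ac peak in either tissue and H3K4me1 in all 5 liver libraries.

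H3K4me1 was not used to choose the members, and its presence there ranged from a rare to the usual state. A consensus H3K4me1 region overlapped 7.81% of the members in naked mole-rat heart, 20.4% in Damaraland mole-rat heart, 37.5% in naked mole-rat liver, 37.8% in guinea pig heart, 59.7% in Damaraland mole-rat liver, 66.5% in mouse heart, 66.7% in guinea pig liver and 82.1% in mouse liver. The same share of the other H3K4me3 regions was 18.9%, 44.8%, 61.0%, 34.3%, 60.5%, 67.8%, 32.1% and 80.2% in that order. Members with H3K4me1 were wider than members without it in all 8 sets. In mouse heart the medians were 890 and 550.5 bases, and in naked mole-rat liver 432 and 315 bases.

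Per library, H3K4me1 peaks were fewer at members than at the other regions in both mole-rats. In naked mole-rat liver 18.4%, 21.3%, 31.9%, 34.3% and 28.4% of members had a peak in NMR30, NMR31, NMR32, NMR34 and NMR35, against 44.9%, 51.2%, 54.2%, 63.1% and 55.7% of the others. In naked mole-rat heart the shares were 17.9%, 10.6% and 6.29% in NMR30, NMR31 and NMR32 against 33.1%, 22.5% and 14.8%. All 8 libraries of this species were lower at members, and in liver the 2 groups of values did not overlap. In Damaraland mole-rat heart DMR1, DMR11, DMR2, DMR3 and DMR4 had 10.8%, 4.38%, 25.9%, 15.4% and 16.6% at members against 28.9%, 16.7%, 49.2%, 36.0% and 43.0%. In its liver DMR1, DMR2, DMR3, DMR4 and DMR6 had 39.8%, 47.1%, 42.6%, 36.3% and 52.01% against 50.7%, 58.7%, 42.9%, 56.9% and 52.3%. The liver gap was under 1 point in DMR3 and DMR6 and largest in DMR4.

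Guinea pig liver went the other way, while mouse heart was lower at members in all 5 libraries, mouse liver in 3 of 4 and guinea pig heart in 2 of 3. The 108 guinea pig liver members had more H3K4me1 than the other regions, 68.5%, 52.8% and 50.0% in GuineaPig7, GuineaPig8 and GuineaPig9 against 40.2%, 30.2% and 33.1%, and the groups did not overlap. Guinea pig heart members had 31.2%, 34.2% and 45.6% against 38.6%, 40.5% and 42.0%. Mouse liver members had 72.4%, 70.5%, 76.5% and 87.2% in 85920, 85921, 85923 and 85924 against 76.2%, 75.02%, 77.5% and 82.6%, so both kinds of region mostly carried the mark. Mouse heart members had 60.9%, 31.9%, 30.3%, 76.6% and 18.9% in 17_3498, 17_3500, 17_3501, 33017 and the pool, against 66.6%, 52.5%, 49.1%, 79.9% and 22.5%. The spread between mouse heart libraries, whose lists held 20521 to 129914 peaks, exceeded the gap between members and others within each.

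Differences were tested as percentage points, members minus others, 1 value per H3K4me1 library, and averaged over the 4 species. In heart the difference was -11.4 points (species means -11.9 in naked mole-rat, -20.1 in Damaraland mole-rat, -3.37 in guinea pig and -10.4 in mouse), negative in 15 of 16 libraries, with an adjusted p of 0.000229 in a two-sided exact sign-flip test (Benjamini-Hochberg over 6 pooled differences). In liver it was -3.57 points (-27.0, -8.73, 22.6 and -1.18), negative in 13 of 17 libraries, with an adjusted exact p of 0.462. The p-values measure the spread between libraries scored on the same regions. The heart call depended on width: against other regions of the same quintile of width the heart difference was -1.12 points (adjusted exact p = 0.545). By the share of each region's bases covered by H3K4me1, a measure chosen after seeing the data, it was 0.0442 points (adjusted exact p = 0.983). Within quintiles of fold the heart difference stayed negative at -5.09 points (adjusted exact p = 0.0105). These quintiles, here and in all later tests, divided the summed fold by all H3K4me3 libraries of the set, including those without a peak. They thus mix peak strength with the number of supporting libraries.

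The liver value turned on what counted as an overlap. With a single shared base as the rule it was -19.1 points (adjusted exact p = 4.58e-05), guinea pig liver changed sign to -11.8 points, and by bases covered the liver value was 7.11 points (adjusted exact p = 0.129). Libraries whose titles carry a do number gave -4.77 points in liver (adjusted exact p = 0.481) and -12.6 in heart (0.0234), and those with a vl number gave -14.2 in liver (0.15) and -9.67 in heart (0.0703). The vl libraries in liver come from the mole-rats alone, so their mean leaves out guinea pig and mouse. All 4 were negative, and 4 libraries allow no unadjusted exact sign-flip p below 0.125. Without NMR30 among the H3K4me3 libraries the naked mole-rat liver difference was -21.6 points, negative in 5 of 5 libraries.

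**Figure D3:**
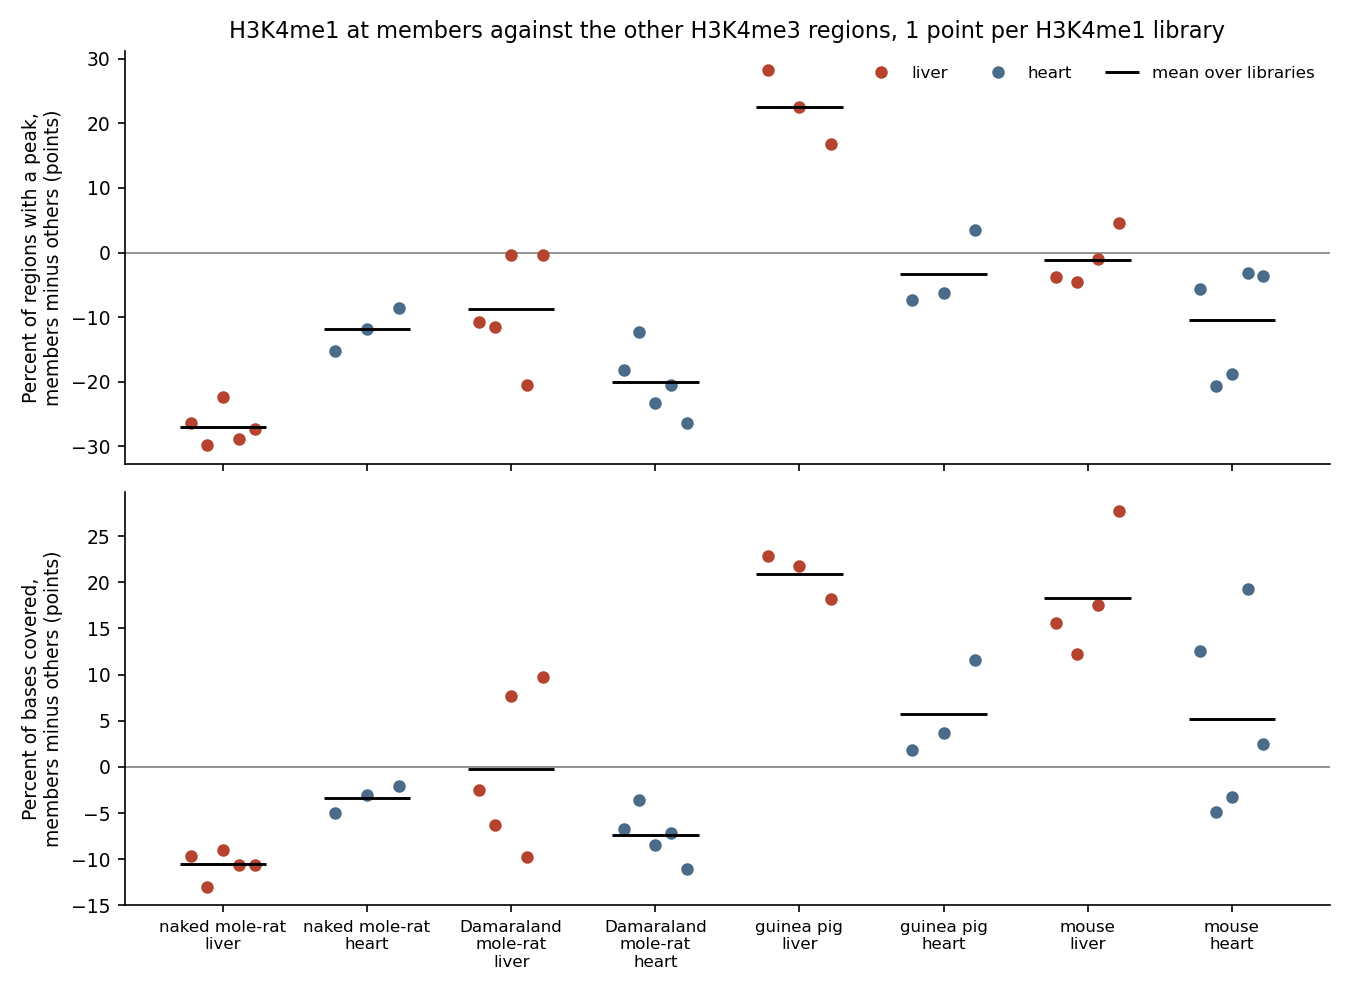
H3K4me1 at members minus the other H3K4me3 regions in percentage points, 1 point per H3K4me1 library with the mean over libraries as a line, as percent of regions with a peak (upper panel) and as mean percent of bases covered (lower panel). Naked mole-rat libraries lie below 0 and guinea pig liver libraries above 0 in both panels, whereas mouse liver moves from a mean of -1.18 to 18.3.

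The H3K4me1 difference was then compared between tissues of a species. It was 15.1 points lower in liver than in heart in naked mole-rat (-27.0 against -11.9) and higher in liver by 11.4 points in Damaraland mole-rat, 25.97 in guinea pig and 9.20 in mouse. In two-sided exact permutation tests adjusted over the 4 species the p-values were 0.0714, 0.0952, 0.133 and 0.135, so none passed 0.05. The unadjusted p of 0.0179 in naked mole-rat is the smallest that 5 against 3 libraries allow, with every liver library below every heart library, and in guinea pig the smallest that 3 against 3 allow is 0.1. Leaving out single libraries brought 2 species under the threshold. Damaraland mole-rat reached 12.1 points (adjusted exact p = 0.0476) without liver H3K27ac library DMR2 and 14.4 points (0.0357) without liver H3K4me1 library DMR4. Mouse reached 12.9 and 11.6 points (both 0.0476) without liver H3K4me3 library 85920 or 85924.

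The state of members in the other tissue was given by its consensus regions, and an H3K4me3 region there counted as acetylated where at least 1 H3K27ac library had a peak. Liver members of Damaraland mole-rat, guinea pig and mouse mostly overlapped an H3K4me3 region of heart that was acetylated in this sense: 69.6% (777 regions), 68.5% (74) and 75.4% (1329) did. In a single heart library H3K27ac was called at fewer of them, 11.01% to 62.1% in Damaraland mole-rat, 20.4% to 61.1% in guinea pig and 42.4% to 63.1% in mouse. In naked mole-rat liver that share was 27.4% (1008), and 50.8% (1866) had no consensus mark in heart, against 19.3% of the others. No consensus mark in heart was less frequent at liver members than at the others in Damaraland mole-rat (6.71% against 10.4%) and mouse (4.14% against 9.58%). In guinea pig it was 9.26% (10 regions) against 7.60%. Heart members were less often acetylated H3K4me3 regions in liver, at 14.0% in Damaraland mole-rat, 14.2% in guinea pig, 14.8% in mouse and 37.6% in naked mole-rat. The other H3K4me3 regions were in that state at 65.0% to 89.1% in all 8 sets.

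H3K4me1 alone was the state of many heart members in liver. In guinea pig 56.0% (774 of 1383) of the heart members overlapped a liver H3K4me1 consensus region without H3K4me3 or H3K27ac, against 9.29% of the other heart regions. The share was 36.8% against 5.73% in mouse, 30.8% against 7.87% in Damaraland mole-rat and 13.6% against 2.57% in naked mole-rat. The states exclude each other, and most other regions were already counted as acetylated H3K4me3 regions, so these gaps do not compare H3K4me1 itself. No consensus mark in liver was likewise more frequent at heart members, at 20.2% against 6.30% in guinea pig and 23.5% against 8.23% in mouse. It was 41.9% against 12.4% in Damaraland mole-rat and 22.4% against 6.14% in naked mole-rat. In the opposite direction, heart H3K4me1 alone at liver members, the shares were 0 to 3.01%, against 0.850% to 1.70% of the others. In guinea pig the 0 of 108 has a Wilson upper bound of 3.43%. H3K27ac without H3K4me3 in the other tissue was uncommon, at 0 to 3.75% of members in 7 sets and 7.88% in guinea pig heart. The share of the other regions was higher in every set, from 1.28% in guinea pig liver to 15.2% in guinea pig heart.

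**Figure D4:**
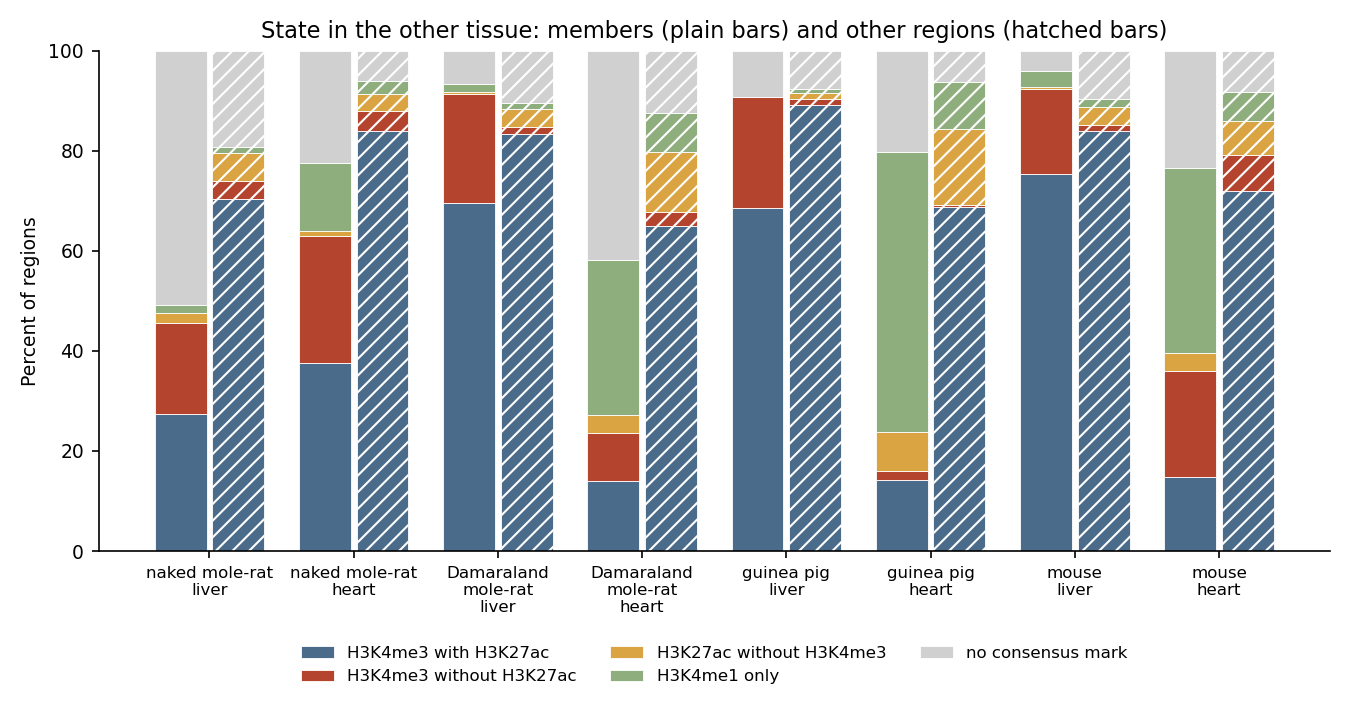
Stacked percent of members (plain bars) and of the other H3K4me3 regions (hatched bars) by their state in the other tissue for the 8 sets, each bar summing to 100%. H3K4me3 with H3K27ac means an H3K4me3 consensus region with an H3K27ac peak in at least 1 library, and the other marks are consensus regions. The acetylated H3K4me3 state covers 68.5% to 75.4% of liver members in Damaraland mole-rat, guinea pig and mouse and 14.0% to 14.8% of heart members in the same species.

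Single libraries of the other tissue, which played no part in the choice, were tested in the same way. H3K27ac was called at fewer members than others in all 34 comparisons of a library. Liver members had a heart H3K27ac peak at 18.1% ± 5.90 (SD, n = 3) in naked mole-rat, 34.5% ± 20.0 (n = 5) in Damaraland mole-rat, 36.7% ± 21.5 (n = 3) in guinea pig and 54.0% ± 8.84 (n = 6) in mouse, against 70.3%, 75.7%, 87.5% and 83.0% of the others. The pooled difference was -43.3 points, negative in 17 of 17 libraries (adjusted exact sign-flip p = 4.58e-05, from an unadjusted 1.53e-05, the smallest that 17 libraries allow). Heart members had a liver H3K27ac peak at 22.7% ± 6.07 (SD, n = 5), 11.6% ± 2.60 (n = 5), 20.2% ± 2.13 (n = 3) and 14.7% ± 0.65 (n = 4) in the same order of species, against 70.2% to 83.5% of the others, a pooled difference of -59.5 points in 17 of 17 libraries (adjusted exact sign-flip p = 4.58e-05). Both stayed negative and past the threshold within quintiles of fold, at -24.2 and -35.6 points. With the vl libraries alone, 6 without mouse and 4 of the mole-rats, they were -55.2 and -57.5 points with adjusted exact p-values of 0.0938 and 0.15. All 6 and all 4 were negative, and the unadjusted exact sign-flip p-values of 0.0312 and 0.125 are the smallest that 6 and 4 libraries allow. With the do libraries alone they were -38.6 and -59.5 points (adjusted exact p = 0.00195 and 0.00146).

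H3K4me3 itself differed between the 2 directions. The tissues also differed in H3K4me3 consensus regions, with fewer in liver than in heart in 3 species. These were guinea pig (14456 against 20031), Damaraland mole-rat (20816 against 27700) and mouse (16841 against 18561). Naked mole-rat had more in liver (27878 against 23025). Whether the contrast follows these numbers was not tested. Heart members had a liver H3K4me3 peak in 25.8%, 51.6%, 55.6%, 63.0% and 64.3% of regions in NMR30, NMR31, NMR32, NMR34 and NMR35, in 25.8% and 36.6% in DMR1 and DMR4, in 19.4%, 15.4% and 12.4% in the 3 guinea pigs, and in 36.4%, 32.2%, 33.4% and 32.8% in the 4 mice. The other heart regions had 65.3% to 89.0%, and the pooled difference was -42.6 points, negative in 14 of 14 libraries (adjusted exact sign-flip p = 0.000229). Within quintiles of fold it was -2.73 points (adjusted exact p = 0.000549), and within quintiles of width -16.8. The do libraries alone gave -41.4 points (adjusted exact p = 0.00146), and the 2 vl libraries, both of naked mole-rat, -38.0 (0.5). With 2 libraries no exact sign-flip p can be below 0.5.

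Liver members, by contrast, mostly carried H3K4me3 in heart as well, except in naked mole-rat. A heart H3K4me3 peak was called at 83.9% ± 8.77 (SD, n = 6) of mouse liver members against 82.6% of the others, at 88.9% ± 0.93 (n = 3) against 90.1% in guinea pig and at 78.8% ± 17.0 (n = 5) against 81.1% in Damaraland mole-rat. Naked mole-rat liver members had 50.4%, 35.5%, 7.90% and 47.1% in NMR31, NMR32, NMR34 and NMR35 against 76.6%, 69.4%, 42.5% and 74.5%. Mouse 6837 (73.3% against 93.3%) and DMR11 (50.1% against 71.7%) had the lowest difference of their species, where 4 of 6 and 3 of 5 libraries were higher at members. Mouse 6839 and DMR4 were also lower at members, by -1.50 and -2.72 points. Neither 6837 nor DMR11 was picked out as a library far from the rest in the search described below. Without DMR11 the Damaraland mole-rat difference was 2.45 points, and without 6837 the mouse difference was 5.55 points. The species means of the difference were -30.5 points in naked mole-rat, -2.36 in Damaraland mole-rat, -1.24 in guinea pig and 1.28 in mouse. Pooled, it was -8.22 points, negative in 11 of 18 libraries, with an unadjusted exact sign-flip p of 0.0458 and an adjusted p of 0.0550. Leaving out any one of 8 libraries brought the adjusted p to between 0.0396 and 0.0487, at -8.39 to -8.90 points. These were heart H3K4me3 libraries DMR2, 17_36584, 33016, 6842 and the mouse pool, liver H3K4me3 libraries GuineaPig8 and 85924, and liver H3K27ac library GuineaPig8.

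Against liver regions of like fold over all H3K4me3 libraries of the set the sign turned. Within quintiles of fold, liver members had a heart H3K4me3 peak 15.3 points more often than the others (adjusted exact p = 4.58e-05), with species means of 5.65 in naked mole-rat, 18.9 in Damaraland mole-rat, 9.37 in guinea pig and 27.2 in mouse. Within quintiles of width the pooled difference was 8.21 points (adjusted exact p = 0.00333). The do libraries alone gave -5.99 points (adjusted exact p = 0.705) and the vl libraries, which include no mouse, -13.2 (0.125). Within a species and tissue, the 24 differences for the 3 marks could not be decided by test. With 2 to 6 libraries the smallest unadjusted p of an exact sign-flip test is 0.0312 to 0.5, which cannot reach 0.05 after adjustment over all 24, so the single differences are given as values only.

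Some members were members in both tissues. These made up 18.2% of the liver and 25.7% of the heart members in naked mole-rat (670 and 661 regions), 22.0% and 9.54% in Damaraland mole-rat (246 and 244), 22.2% and 1.74% in guinea pig (24 and 24), and 17.0% and 21.2% in mouse (299 and 297). As the sets differ in size, each share is of its own set. Among the other H3K4me3 regions, 3.60% in liver and 4.08% in heart of naked mole-rat overlapped a member of the other tissue. The shares were 1.48% and 2.83% in Damaraland mole-rat, 1.16% and 0.391% in guinea pig, and 1.26% and 7.14% in mouse. Regions that also overlapped an acetylated H3K4me3 region there were left out of these shares of the others. In heart the shared members were the stronger ones in every species, with median folds of 8.67 against 7.24 in naked mole-rat, 10.5 against 6.76 in Damaraland mole-rat, 14.0 against 7.15 in guinea pig and 10.5 against 7.63 in mouse. In liver the order was mixed, 7.49 against 5.92 in naked mole-rat and 6.51 against 7.22 in mouse.

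The shared members named here are the strongest among those called in every H3K4me3 library of both tissues. Folds of each tissue were taken at its own region, whose ends differ somewhat between the tissues. By the rule they have no H3K27ac peak in any of the liver or heart libraries. In naked mole-rat the strongest was JH171965.1 from 216719 to 217700, with liver folds of 14.7, 68.8, 29.8, 91.7 and 57.4. The overlapping heart region, from 216683 to 217533, had folds of 86.9, 31.8, 6.55 and 16.3 in NMR31, NMR32, NMR34 and NMR35. H3K4me1 was called there in 4 of 5 liver libraries and 0 of 3 heart libraries. In mouse it was chromosome 1 from 139454239 to 139455665, whose heart folds had a lowest value of 15.5 (6839), a mean of 41.5 ± 23.4 (SD, n = 6) and a highest value of 71.9 (the pool), and whose liver folds were 25.5, 15.9, 25.2 and 19.8. H3K4me1 was called there in 4 of 4 liver and 2 of 5 heart libraries. A second mouse region, chromosome 2 from 119617842 to 119619336, had liver folds of 33.6, 30.1, 37.0 and 32.7. In Damaraland mole-rat the strongest was KN122106.1 from 16193595 to 16194636, with heart folds of 31.9, 5.58, 55.8, 24.3 and 9.81 in DMR1, DMR11, DMR2, DMR3 and DMR4 and liver folds of 12.1 and 17.5.

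The distance from members to the nearest acetylated chromatin varied between sets. The median distance to the nearest H3K27ac peak of the set was 6036 bases in Damaraland mole-rat liver, the shortest, and 24885 bases in mouse heart, the longest. An H3K27ac peak lay within 1 kb of 8.91% of mouse liver and 10.7% of mouse heart members, 19.4% and 22.2% in guinea pig heart and liver, and 28.7% to 37.8% in the mole-rats. Between 43.8% and 68.8% of the members of a set had none within 10 kb. Another H3K4me3 region that was acetylated lay within 1 kb of 5.56% to 7.32% of members in guinea pig liver and in mouse, 15.1% in guinea pig heart and 23.3% to 29.2% in the mole-rats. Members rarely lay in runs: at most 4.73% (Damaraland mole-rat heart, 121 members) were in a run of at least 3 members less than 10 kb apart. The longest runs held 6 members, in mouse liver on chromosome 13 from 21158952 to 21173649 and in guinea pig heart on DS562861.1 from 3704903 to 3739762.

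In mouse, where the files name chromosomes, the X chromosome had a higher share of members than each autosome. In liver 98 of 487 H3K4me3 regions on X were members (20.1%, Wilson interval 16.8 to 23.9), against 10.2% on all autosomes and 8.05% to 13.8% on the 19 single autosomes. In heart 74 of 567 were members (13.1%, 10.5 to 16.1), against 7.36% on all autosomes and 4.89% to 10.5% on single ones. Every H3K27ac library missed more of the H3K4me3 regions on X than on the autosomes, for example 26.3% against 15.2% in liver of 85920 and 33.7% against 19.3% in heart of 17_36584. H3K4me3 of the other regions was also weaker on X, with median folds of 36.9 against 43.9 in liver and 28.4 against 34.5 in heart. In the weakest quintile of fold alone, 55.6% of the X regions and 27.3% of the autosomal ones were members in liver, and 37.8% and 20.2% in heart. In quintile 2 the shares were 33.3% and 19.9% in liver and 25.2% and 15.4% in heart. In quintile 3 they were 9.62% and 3.56% in liver, but 0.962% and 1.17% in heart, where X was not higher.

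**Figure D5:**
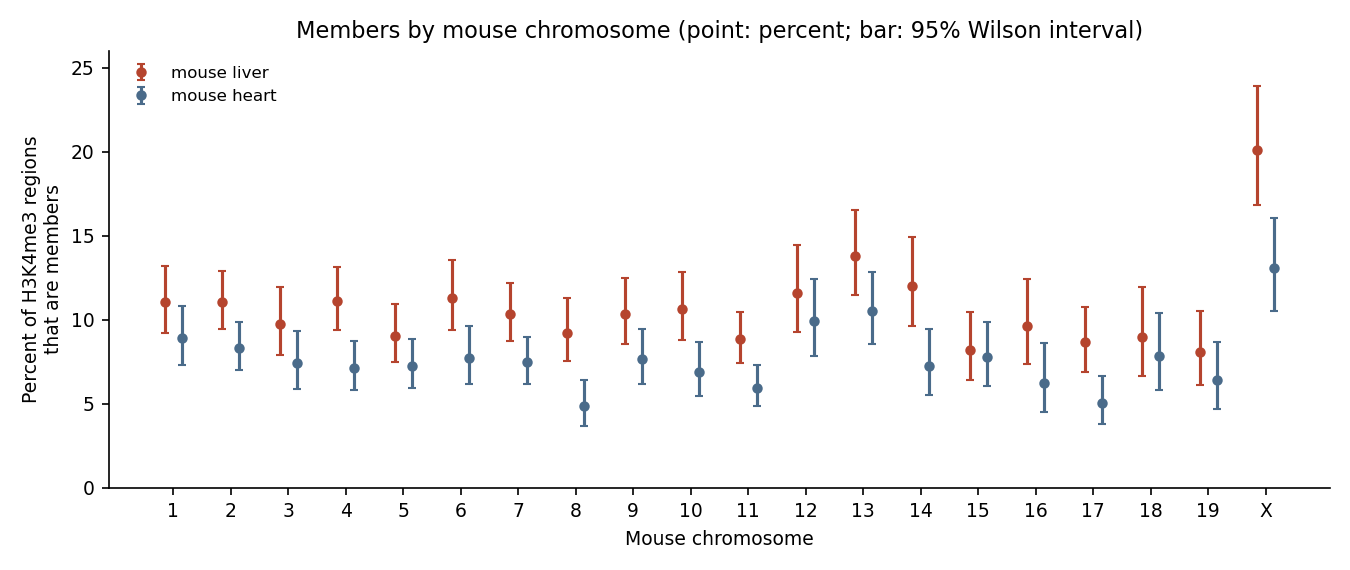
Percent of H3K4me3 consensus regions that are members (vertical axis) on each mouse chromosome (horizontal axis) in liver and heart, with 95% Wilson intervals covering counting error only. X is highest in both tissues, at 20.1% in liver and 13.1% in heart, and chromosome 13 is the highest autosome, at 13.8% and 10.5%.

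Transcription factors were rarely called at members. In liver the 16 libraries of CEBPA, FOXA1, HNF4A, HNF6 and RXRA, which drive hepatocyte genes, came from 2 naked mole-rats and 2 Damaraland mole-rats, and all 16 had a smaller share of peaks at members than at other H3K4me3 regions. The shares were 0.627% to 9.76% at members and 4.90% to 43.4% at the others. RXRA, the partner of many nuclear receptors, was called at 0.980% of members in NMR30 and 3.78% in NMR35, against 13.3% and 33.0% of the others, and at 1.34% in DMR1 and 3.76% in DMR4 against 15.0% and 43.4%. The highest share of a single library at members was 9.76% against 29.2%, for HNF4A, a nuclear receptor of hepatocytes, in DMR4. In NMR30 and NMR35 HNF4A was called at 1.58% and 4.63% of members against 5.34% and 18.1%. CEBPA was called there at 5.72% and 3.70% of members against 27.9% and 21.2%. TBX5, a cardiac T-box factor, was called in the heart of DMR6 at 3.75% of members (96 regions, Wilson interval 3.08 to 4.56) against 10.7% of the others. With 1 or 2 animals per factor and species these shares were not tested. They were also not compared within quintiles of width, and a wider region has more room for a factor peak. Median widths of members and others were 343 and 967 bases in naked mole-rat liver and 463 and 1031 in Damaraland mole-rat liver. In Damaraland mole-rat heart they were 402.5 and 923 bases.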

How the data were processed

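The 116 peak lists analysed (99 histone, 17 factor) were made by the authors with MACS2, per the submitters' processing notes. Its version and the aligner were not given in the sources used here. Each list was deposited with a fold enrichment per peak, a linear ratio over background, and a −log10 q-value, of which the lowest was 1.30. There was 1 list per library. The 1 sample with a title and organism that disagree was left without a group, and planned gene lists and cell type markers were not used because no annotation of these builds was used here. Positions count from 1.

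Overlaps, consensus regions and tests were computed with SciPy 1.17.1, pandas 2.3.3 and NumPy 2.4.6 under Python 3.11.15, tested on simulated peaks, and drawn with Matplotlib 3.10.9. Differences between members and other regions were tested by exact sign-flip tests, and between tissues of a species by exact permutation tests, with Benjamini-Hochberg adjustment at 0.05. Liver and heart libraries of the same animal, named in the labels, were paired in an alternative fit. Regions named are the 3 strongest members of a set called in every H3K4me3 library, the 2 strongest shared by both tissues and the widest, or some of these. The members and lists were chosen with earlier results of these data known.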

Additional observations from a re-analysis of the deposited data

Results flagged for a closer look

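In liver the H3K4me1 difference between members and other H3K4me3 regions lay on opposite sides of 0 in different species. All 3 guinea pig libraries were above 0, with a mean of 22.6 points, while all 5 naked mole-rat libraries (mean -27.0) and all 5 Damaraland mole-rat libraries (mean -8.73) were below 0. The difference between species was not tested. Guinea pig liver rests on 108 members, and its mean was -11.8 points when a single shared base counted as overlap.

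Of 25 groups of 4 to 10 libraries examined for a library far from the rest, 2 were picked out, and chance picks about 1 in 20. The median H3K4me3 fold of mouse heart members was 11.3 in the pool of 3 mice and 6.07 to 7.49 in the other 5 libraries. That of mouse liver members was 7.11 in 85924 and 7.76 to 7.77 in the other 3.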

How the results depend on the processing

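All values are percentage points, members minus others. With overlap by a single base the H3K4me1 difference was -19.1 in liver and -11.8 in guinea pig liver. With peaks of a −log10 q of at least 4, the heart H3K4me3 difference of guinea pig liver members was 0.229. With a consensus of at least 3 libraries the H3K4me1 difference was 2.07 in liver and 2.42 in mouse liver, Damaraland mole-rat liver gave no region, and member counts were 1922 and 1221 in naked mole-rat liver and heart, 1304 in Damaraland mole-rat heart, 36 and 845 in guinea pig and 849 in mouse heart. With H3K27ac consensus regions in place of any library the counts were 5535 and 4753 in naked mole-rat liver and heart, 1910 and 4631 in Damaraland mole-rat and 215 and 2779 in guinea pig, and the heart H3K4me3 difference of guinea pig liver members was 0.277.

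Within quintiles of width the H3K4me1 difference was 1.94 in liver, -1.12 in heart, 5.12 in guinea pig heart, 7.85 in mouse liver and 3.53 in mouse heart, and the heart H3K4me3 difference of liver members was 8.21 pooled, 8.87 in Damaraland mole-rat and 2.79 in guinea pig. Within quintiles of fold the latter was 15.3 pooled, 5.65 in naked mole-rat, 18.9 in Damaraland mole-rat and 9.37 in guinea pig, and the H3K4me1 difference was 7.12 in mouse liver and 0.728 in mouse heart. By bases covered, added after seeing the data, the H3K4me1 difference was 7.11 in liver, 0.0442 in heart, 5.73 in guinea pig heart, 18.3 in mouse liver and 5.24 in mouse heart, and the heart H3K4me3 difference of liver members was 3.88 in Damaraland mole-rat and 0.567 in guinea pig. With do libraries alone the heart H3K4me3 difference of Damaraland mole-rat liver members was 2.91. With vl libraries alone the H3K4me1 difference was -9.67 in heart and 3.54 in guinea pig heart, and heart members had -38.0 for H3K4me3 and -57.5 for H3K27ac in liver, and liver members -55.2 for H3K27ac in heart. No cause of these changes was tested.

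Leaving out 1 library at a time, the heart H3K4me3 difference of liver members ran from -10.2 to -6.45 pooled, -5.09 to 2.45 in Damaraland mole-rat, -2.98 to 0.658 in guinea pig (above 0 without liver H3K27ac library GuineaPig7) and -0.465 (without the heart pool) to 5.55 in mouse. The H3K4me1 difference ran from -6.83 to 1.05 (without heart H3K4me3 library GuineaPig7) in guinea pig heart and from -3.09 to 2.53 in mouse liver, above 0 without H3K4me3 library 85920, 85921 (0.622) or 85924 (1.26). Liver minus heart it ran from 7.96 to 14.4 in Damaraland mole-rat and from 2.08 to 12.9 in mouse. The 4 pooled differences that passed 0.05 kept their sign and call without each library in turn. Either H3K4me3 library of Damaraland mole-rat liver, when left out, removed that set.

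With animals paired (replicate block) the liver minus heart H3K4me1 difference was -14.4 in naked mole-rat (3 animals), 11.2 in Damaraland mole-rat (4) and 25.97 in guinea pig (3), with an adjusted exact p of 0.25 each. With 3 or 4 pairs the smallest unadjusted exact p is 0.25 or 0.125, so no call was possible in this fit. Mouse shared no animal between tissues. Read depth is unknown, so a set's size and the depth of its H3K27ac libraries cannot be told apart.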

Other observations

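H3K4me1 of the other tissue was also measured at the members. In guinea pig, heart members carried a liver H3K4me1 peak more often than the other heart regions in all 3 libraries, 65.9% ± 3.59 against 54.0% ± 4.39 (SD, n = 3). By bases covered the 3 guinea pig libraries were higher at members as well, by 18.9, 22.03 and 20.5 points. In the other 3 species the heart members had fewer liver H3K4me1 peaks than the others in every library, for example 32.2% ± 7.19 against 48.5% ± 5.00 (SD, n = 5) in Damaraland mole-rat. By bases covered this turned in all 4 mouse libraries (3.65 to 19.3 points higher at members), in DMR3 (3.22), DMR6 (4.92), NMR32 (2.45) and NMR34 (0.106). These values were chosen after the data were seen and were not tested.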
